A study of Caenorhabditis elegans with 30 samples.

Results

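The contrast described here asks how far the transcriptional answer of *C. elegans* to an oomycete extract differs when the receptor tyrosine kinase gene *old-1* carries a deletion. It is the extract response of *old-1(ok1273)* animals minus the extract response of wild-type N2 animals, on the log2 scale, taken gene by gene. The contrast uses 12 of the 30 libraries of the series, which are those of the 4 groups that make up its arms. The groups were untreated N2, N2 given extract, untreated *old-1(ok1273)* and *old-1(ok1273)* given extract, with 3 libraries each, replicates A, B and C. All animals were synchronized by bleaching, grown on *E. coli* OP50 and collected whole at the L4 larval stage. The extract came from the oomycete *Myzocytiopsis humicola* and was added to the bacterial lawn shortly before collection, and the *ok1273* deletion was present with and without it. The strain list of the study holds *ok1273* both with and without a *chil-27p::GFP* reporter, and the labels name no reporter for these libraries. Nothing in the labels says that the replicates were separate cultures, so each p-value measures the spread between these libraries only.

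Oomycetes are filamentous eukaryotes that infect nematodes through the cuticle. *C. elegans* answers them, and non-infectious extract made from them, with the oomycete recognition response (ORR), in which *chil* genes, which encode chitinase-like proteins made in the epidermis, are switched on. *old-1* is a KIN-16 receptor tyrosine kinase gene. The receptors of this family are single-pass membrane proteins with an intracellular kinase domain, and *flor-1* encodes a pseudokinase among them. Some genes of the ORR, among them members of the *pals* family, are also known from the response to microsporidia and viruses, the intracellular pathogen response.

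Counts were summed per gene and tested with edgeR's quasi-likelihood test, and every adjusted p below is a Benjamini-Hochberg value from that test over all 16264 genes tested. To be called, a gene needed a p under 0.01 together with an adjusted p under 0.1. A response difference below 0 means a smaller or more negative response in *old-1(ok1273)*, and these genes are named as having a lower response. Levels are given in CPM, which are counts scaled to the library's total, with the mean and SD of 3 libraries. In RNA from whole animals, fewer cells of a type and less RNA per cell cannot be told apart.

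*old-1* itself, on chromosome II from 9866464 to 9868747 of assembly WBcel235, had 3.01, 1.58 and 1.84 CPM in untreated N2, 3.20, 3.39 and 2.53 CPM in extract-treated N2, 0.886, 1.124 and 0.782 CPM in untreated *old-1(ok1273)* and 1.17, 0.758 and 0.538 CPM in extract-treated *old-1(ok1273)*. Every *old-1(ok1273)* library lay below every N2 library, and reads remained in the mutant. The level was lower in *old-1(ok1273)* than in N2 both without extract (log2 difference -1.20 ± 0.34 SE, adjusted p = 0.0173) and with it (-1.88 ± 0.34 SE, adjusted p = 0.00445). The extract response of *old-1* itself was not called in N2 (log2 fold change 0.50 ± 0.32 SE, adjusted p = 0.256).

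The libraries held between 19214839 and 27688255 estimated counts. Within groups the correlation of log2 CPM between replicates was 0.9924 or more, except in untreated N2, where it ranged from 0.9031 to 0.9913. In untreated N2, the mean log2 CPM of 19 genes of oocytes, eggshell and yolk, which come on as hermaphrodites mature, came to 2.49 for replicate A, 5.55 for replicate B and 6.04 for replicate C. In the other 9 libraries this mean lay between 2.16 and 2.60. Levels also followed transcript length in the 3 untreated *old-1(ok1273)* libraries. These stood 0.20 to 0.22 above the 12-library mean on the log2 scale in the shortest 10% of transcripts (median 464 bases) and 0.23 to 0.26 below it in the longest 10% (median 3794 bases), as the plot of the libraries shows. Calls are therefore also followed through 3 further fits: without untreated N2 replicates B and C, with each library's length trend taken out, and with both changes. A gene that was called in the same direction in the 12-library fit and in those 3 fits is said to have held. With B and C left out, untreated N2 rests on replicate A, which is assumed to vary like the libraries of the other groups. With transcript length, replicate A ran opposite to the untreated *old-1(ok1273)* libraries, from -0.15 in the shortest 10% to 0.14 in the longest. The 3 treated N2 libraries ran in the same direction as replicate A.

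**Figure D1:**
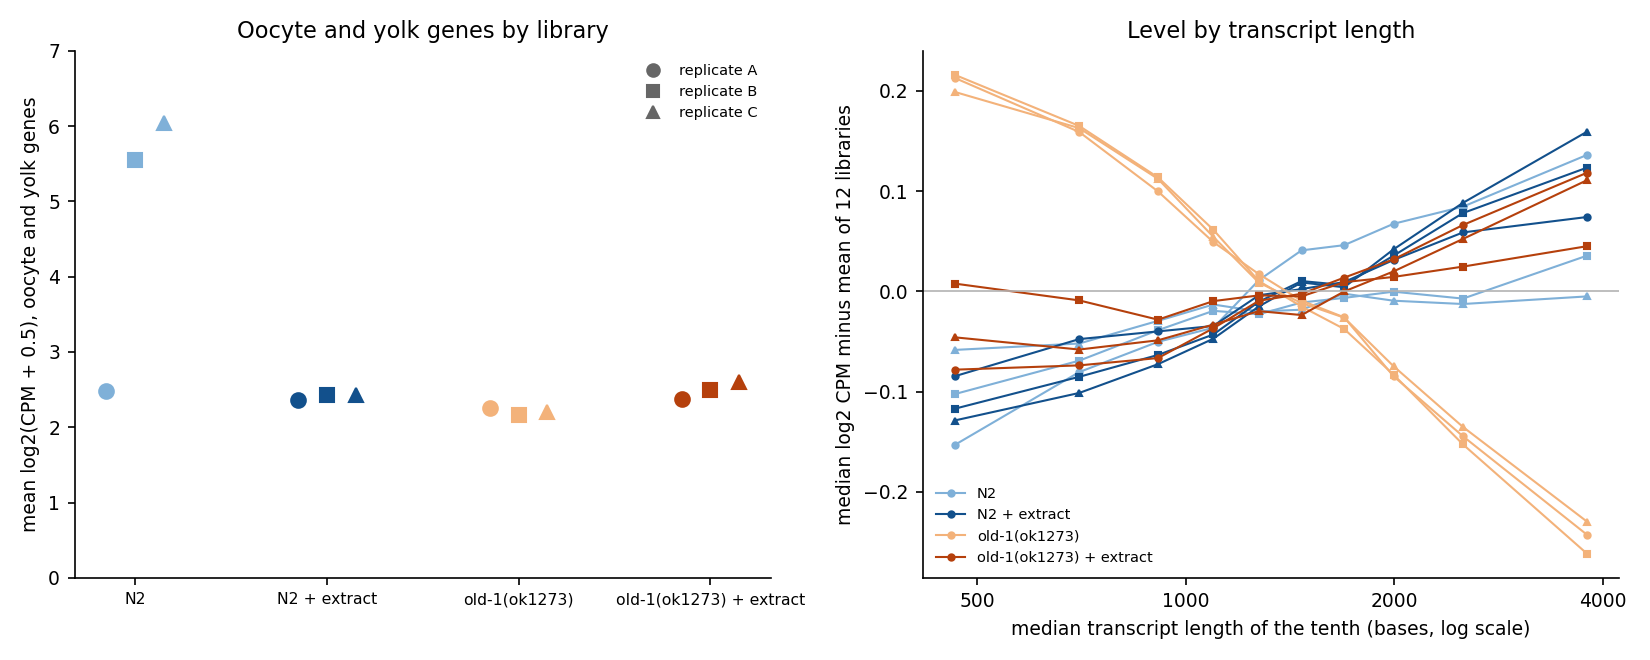
The left panel shows the mean log2 CPM (0.5 added) of 19 oocyte and yolk genes in each of the 12 libraries, and the right panel the median deviation of each library from the mean of all 12 (log2 CPM) in 10 equal groups of genes ordered by transcript length in bases. Untreated N2 replicates B and C stand at 5.55 and 6.04 in the left panel against 2.16 to 2.60 in the 9 libraries of the other groups, and the 3 untreated *old-1(ok1273)* libraries fall from 0.20 to 0.22 in the shortest group to between -0.23 and -0.26 in the longest.

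The extract response differed between *old-1(ok1273)* and N2 at 3964 genes. It was lower in *old-1(ok1273)* at 1854 genes (11.4% of those tested) and higher at 2110 (13%). With untreated N2 replicates B and C left out, 1502 genes (9.24%) had a lower and 1763 (10.8%) a higher response, of which 1214 and 1230 were called in the same direction in the 12-library fit. In all 4 fits together, 730 genes (4.49%) held as lower and 643 (3.95%) as higher. The genes called lower had a median transcript length of 1025 bases and those called higher 1927 bases. The share called lower went from 24% in the shortest 10% of genes to 3.06% in the longest, and the share called higher from 4.50% to 39.4%.

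A difference of responses can come from either arm. In N2, extract treatment raised 2101 genes (12.9%) and lowered 2648 (16.3%). In *old-1(ok1273)* it raised 1835 (11.3%) and lowered 1543 (9.49%). These balances depended on the fit. In N2 the raised genes became the larger set without untreated N2 replicates B and C (1276 raised, 1021 lowered), with an oocyte and yolk covariate (1187 and 970), with limma on log2 CPM (2260 and 1752), with limma on log2 TPM (2353 and 1339), without untreated N2 replicate C alone (1659 and 1498) and without treated N2 replicate C (1931 and 1692). In *old-1(ok1273)* they became the smaller set with the length correction (939 raised, 1117 lowered). They were also the smaller set there with the length correction and untreated N2 replicates B and C left out. For *old-1(ok1273)*, limma on log2 TPM gave 3189 raised and 454 lowered. Large increases were concentrated in N2, with 656 genes raised by 1 or more on the log2 scale and 271 by 2 or more, against 212 and 35 in *old-1(ok1273)*. The N2 and *old-1(ok1273)* responses share no library. Of the genes raised, 360 were raised in both, which is 17.1% of the N2 list and 19.6% of the *old-1(ok1273)* list, and 145 of the genes raised in N2 were lowered in *old-1(ok1273)*. Between the extract-treated groups, 1464 genes (9%) were lower and 843 (5.18%) higher in *old-1(ok1273)*, and between the untreated groups 2796 (17.2%) were lower and 2276 (14%) higher. Without untreated N2 replicates B and C the counts between the extract-treated groups were nearly even, at 2098 lower and 2048 higher, with the length correction as well they were 1920 and 2271, and without untreated N2 replicate A they were 1975 and 1972. Between the untreated groups limma on log2 TPM gave 3597 lower and 1060 higher, whereas the length correction turned the balance, to 1831 lower and 2207 higher. At 36.4% of the genes with a lower response, and at 15.6% of those with a higher one, the extract-treated groups differed by more than the untreated groups did. Among the genes that held, these shares were 54.1% and 18%.

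Of the genes that extract raised by 1 or more in N2, 419 had a lower response in *old-1(ok1273)* and no called response of their own there, and 303 of these held. Their median log2 response was 1.68 in N2 and -0.19 in *old-1(ok1273)*. Another 18 were raised in both with a lower response in the mutant, and 27 were raised in N2 and lowered in *old-1(ok1273)*, all 27 of which held. For 20 genes the response was called in both genotypes and the 95% interval of the difference lay within 1 log2 unit of 0. The other 172 fell in none of these groups. Their difference was not called, was called as a higher response in the mutant, or had an interval too wide to place it. On the side of lowered genes, 624 lost a decrease of 1 or more seen in N2, but only 52 of these held.

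**Figure D2:**
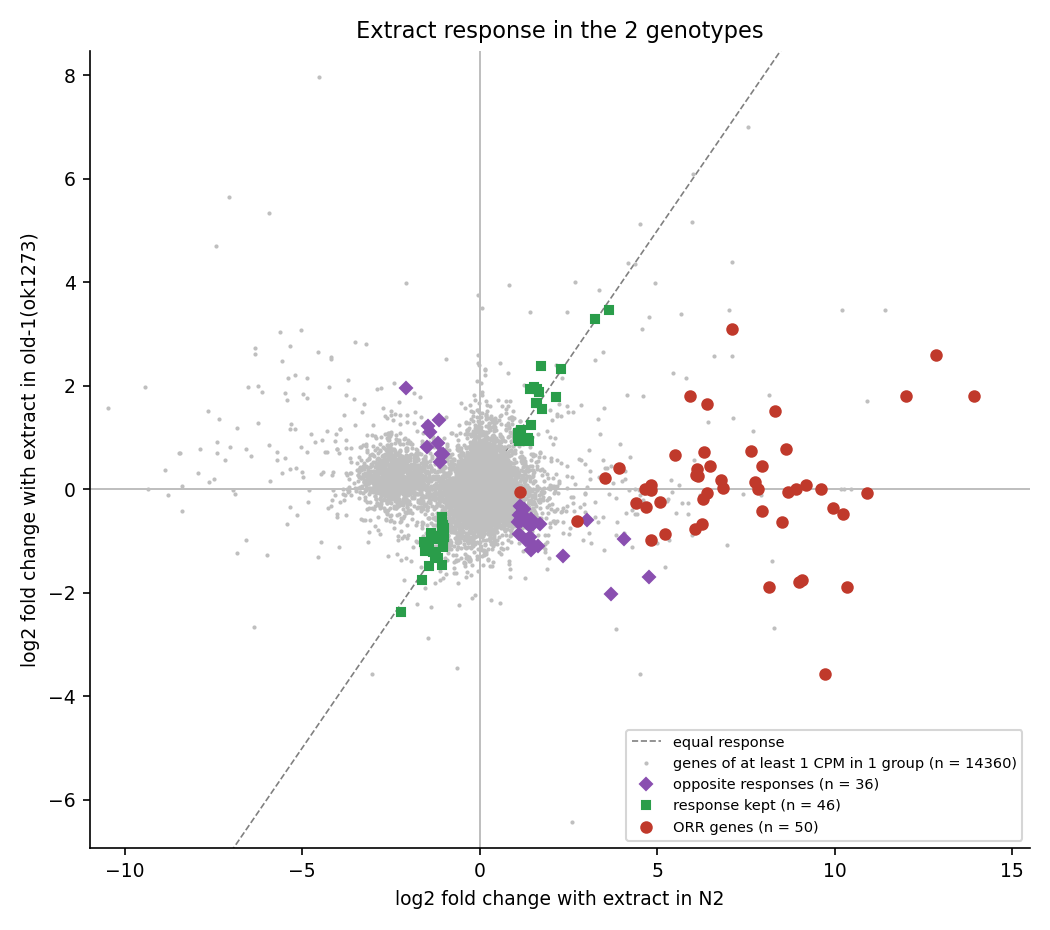
Each point is a gene of at least 1 CPM in a group, placed by its log2 fold change after extract treatment in N2 (x axis) and in *old-1(ok1273)* (y axis), with the 50 ORR genes, opposite and kept responses marked as in the key and a dashed line at equal responses. The ORR genes more than 1 log2 unit from 0 on the y axis had mutant group means of at most 0.234 CPM (*F09C6.13*). The ORR genes had N2 responses from 1.14 to 13.94, and none was called in *old-1(ok1273)*.

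The ORR list holds genes picked for a regular rise after extract treatment, in part from the N2 libraries used here, so it gives no independent evidence of a rise in N2. The response difference subtracts the N2 rise, so its negative values here are in part set by that choice. The list has 50 members, all of them tested. Of these, 18 passed the filter on low counts only through treated N2, the group where they were high. All of the other 32 were called lower. All 50 had a negative response difference, and 42 of 50 were called lower, against 11.4% of all genes. Of these, 41 held, against 4.49% of all genes, and 42 were called with untreated N2 replicates B and C left out. The median response difference over the 50 was -6.82, and -6.73 with group counts under 3 set to 3, beside -0.02 over all genes tested. None of the 50 was called in *old-1(ok1273)* in either direction, where 11.3% of all genes were raised and 9.49% lowered. In 47 of 50 the treated and untreated mutant libraries overlapped. No share of all genes is given for this overlap, so that count is not read as a result about these genes. In all 50, every extract-treated *old-1(ok1273)* library lay below every extract-treated N2 library. Over all genes tested, the extract-treated groups did not overlap, in either direction, at 6295 of 16264. Of the 50, 49 were called lower between these groups, against 9% of all genes. The level in extract-treated *old-1(ok1273)* was a median of 0.832% of that in extract-treated N2. It was under 5% in 42 genes and under 10% in 46, and was highest in *kin-15*, at 75.1%. For 12 of the 50, the 95% interval of the *old-1(ok1273)* response lay within 1 log2 unit of 0. Before extract, 6 of the 50 were called higher in the mutant (14% of all genes were) and 2 lower.

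Among the *chil* genes, *chil-18* was the most abundant of the ORR members in treated N2, in CPM not scaled by length, and had 0.223, 0.105 and 0.0376 CPM in untreated N2, 146, 119.6 and 121 CPM in extract-treated N2, 0.177, 0.435 and 0.348 CPM in untreated *old-1(ok1273)* and 0.283, 0.279 and 0.192 CPM in extract-treated *old-1(ok1273)*. Only the extract-treated N2 libraries were above 1 CPM. The response difference was -10.33 ± 0.62 SE, adjusted p = 2.69e-06. *chil-27*, the gene whose reporter is used to score oomycete recognition, had 0, 0.105 and 0 CPM in untreated N2, 38.7, 40.6 and 48.6 CPM in extract-treated N2, 0, 0.0363 and 0 CPM in untreated *old-1(ok1273)* and 0, 0 and 0 CPM in extract-treated *old-1(ok1273)*. Its reads summed to 3130 counts in treated N2 and to 0 in treated *old-1(ok1273)*, which makes it at least 1136-fold lower there, taking 3 counts over the group as the floor. *chil-26* had 1817 counts in treated N2 and 0 in treated *old-1(ok1273)*, at least 659.6-fold lower. Both were called lower (adjusted p = 0.0232 and 0.0223), and no fitted size is given for them because a group stands at 0.

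*chil-7* had 0.297, 0.105 and 0.301 CPM in untreated N2, 17.3, 18.8 and 21.9 CPM in extract-treated N2, 0.266, 0.580 and 0.217 CPM in untreated *old-1(ok1273)* and 0.425, 0.0798 and 0.154 CPM in extract-treated *old-1(ok1273)*, a response difference of -6.96 ± 0.74 SE, adjusted p = 9.70e-05. *chil-3* had 0.743, 0.368 and 0.489 CPM in untreated N2, 17.8, 18.9 and 19.4 CPM in extract-treated N2, 1.33, 1.60 and 1.26 CPM in untreated *old-1(ok1273)* and 1.31, 1.28 and 0.961 CPM in extract-treated *old-1(ok1273)*. Its response difference was -5.33 ± 0.31 SE, adjusted p = 2.25e-06, and untreated *old-1(ok1273)* lay above untreated N2 (1.36 ± 0.24 SE, adjusted p = 0.00137). *chil-1*, which is annotated as overlapping the end of *old-1*, had 2.303, 0.368 and 0.677 CPM in untreated N2, 35.9, 31.9 and 31.9 CPM in extract-treated N2, 3.50, 3.01 and 3.82 CPM in untreated *old-1(ok1273)* and 4.07, 2.87 and 3.23 CPM in extract-treated *old-1(ok1273)*. It was likewise higher in untreated *old-1(ok1273)* than in untreated N2 (1.57 ± 0.44 SE, adjusted p = 0.0177), and in the mutant the level with extract overlapped the level without it. The response difference of *chil-1* was -4.85 ± 0.58 SE, adjusted p = 3.24e-04. *chil-5* and *chil-6* reached 6.77 ± 0.619 CPM and 3.61 ± 0.221 CPM in treated N2 and 0.969 ± 0.209 CPM and 0.659 ± 0.248 CPM in treated *old-1(ok1273)* (n = 3 each), with response differences of -3.32 ± 0.49 SE, adjusted p = 9.20e-04 and -3.34 ± 0.47 SE, adjusted p = 6.99e-04.

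Of the 24 *chil* genes tested, 16 had a lower response (66.7%, against 11.4% of all genes), 1 had a higher one, and all 16 held (4.49% of all genes did). Of the 24, 4 passed the filter on low counts only through treated N2, and among the other 20, 13 had a lower response and 1 a higher one. The median difference over the 24 was -3.03, and -3.04 with group counts under 3 set to 3. Outside the 9 ORR members, 8 of 15 were lower. The family lies mostly in a pair of clusters on chromosome II. In the cluster around *old-1*, from 9843258 to 9874608, *chil-1*, *chil-3*, *chil-4*, *chil-5*, *chil-6*, *chil-7* and *chil-8* were called lower, and *chil-2* and *chil-9* were not called. In the other, from 9436624 to 9479696, the calls were split. There *chil-13*, *chil-17*, *chil-18*, *chil-25*, *chil-26* and *chil-27* were lower, while *chil-19*, *chil-21*, *chil-22* and *chil-23* were not called in either direction. Elsewhere *chil-24*, *chil-11* and *chil-12* were lower, *chil-10* on chromosome X was not called, at 44.8 CPM in treated N2 and 38.5 CPM in treated *old-1(ok1273)*, and the higher call was *chil-14*, at 0.101 and 0.355 CPM.

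Of 8 KIN-16 family members tested, 6 were raised by extract in N2 (12.9% of all genes), none was called in *old-1(ok1273)*, and 4 had a lower response (11.4% of all genes), of which 3 held. Of the 8, *old-2*, *R09D1.13* and *ver-1* passed the filter on low counts only through treated N2, and among the other 5, 3 were raised in N2 and 3 had a lower response. *R09D1.12* had 0.297, 0.421 and 0.564 CPM in untreated N2, 33.6, 36.1 and 40.5 CPM in extract-treated N2, 0.354, 0.363 and 0.348 CPM in untreated *old-1(ok1273)* and 0.425, 0.359 and 0.231 CPM in extract-treated *old-1(ok1273)*. Its response difference was -6.47 ± 0.36 SE, adjusted p = 2.02e-06. *ver-1*, which encodes a receptor related to vertebrate growth factor receptors, had 0, 0.105 and 0.0752 CPM in untreated N2, 12.5, 13.9 and 18.3 CPM in extract-treated N2, 0.177, 0 and 0.0435 CPM in untreated *old-1(ok1273)* and 0.106, 0.0399 and 0 CPM in extract-treated *old-1(ok1273)*, a response difference of -8.37 ± 1.53 SE, adjusted p = 0.00457. Both were near 0 in every group but extract-treated N2.

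*kin-15* and *kin-16*, neighbouring genes on chromosome II, were expressed without extract and responded less. *kin-15* had 10.74, 5.94 and 10.5 CPM in untreated N2, 19.2, 21.3 and 19.4 CPM in extract-treated N2, 14.97, 16.02 and 15.7 CPM in untreated *old-1(ok1273)* and 14.4, 16.43 and 14.2 CPM in extract-treated *old-1(ok1273)*. Every treated mutant library stood below treated N2, a difference that was not called (-0.41 ± 0.17 SE, adjusted p = 0.155), and every untreated mutant library above untreated N2, which was called (0.77 ± 0.17 SE, adjusted p = 0.00578). The response difference of *kin-15* was -1.19 ± 0.24 SE, adjusted p = 0.00602, and that of *kin-16* was -0.81 ± 0.20 SE, adjusted p = 0.0148. *kin-16* went from 10.5 ± 2.29 CPM to 17.7 ± 1.73 CPM in N2 and from 13.4 ± 1.18 CPM to 13 ± 0.706 CPM in *old-1(ok1273)* (n = 3 each), and its response difference was not called with untreated N2 replicates B and C left out (-0.50, adjusted p = 0.0574).

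*old-2*, the family member named with *old-1*, had 176 counts over the 3 treated N2 libraries and 0 over each of the other 3 groups. That is at least 63.9-fold lower in treated *old-1(ok1273)* than in treated N2. *R09D1.13* had 18 counts in treated N2 and 0 in the other groups, at least 6.53-fold lower. *flor-1* showed no called difference of response (-0.35 ± 0.26 SE, adjusted p = 0.319, 95% interval -0.92 to 0.21) and had between 27.3 and 54.4 CPM in the 12 libraries, with all 4 groups overlapping. *vab-3*, a Pax6 transcription factor gene that the study also examined, was raised by extract in N2 (0.39 ± 0.12 SE, adjusted p = 0.0322), and its response difference was not called (-0.32 ± 0.18 SE, adjusted p = 0.195, 95% interval -0.70 to 0.068).

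The most abundant ORR transcripts, in CPM not scaled by length, allowed the closest comparison. *ddn-1* had 2.97, 1.95 and 2.52 CPM in untreated N2, 1073, 985 and 1046 CPM in extract-treated N2, 2.48, 2.65 and 2.48 CPM in untreated *old-1(ok1273)* and 2.12, 2.59 and 2.65 CPM in extract-treated *old-1(ok1273)*. It stood under 3 CPM in every library outside treated N2, and its response difference was -8.73 ± 0.17 SE, adjusted p = 1.79e-10. *vsra-1*, which encodes an Argonaute protein that binds small RNAs, had 19.4, 22.5 and 23.9 CPM in untreated N2, 561, 551 and 556 CPM in extract-treated N2, 20.02, 20.7 and 21.3 CPM in untreated *old-1(ok1273)* and 19.2, 21.9 and 20.7 CPM in extract-treated *old-1(ok1273)*. The 9 libraries outside treated N2 covered a narrow range, the *old-1(ok1273)* response was -0.0043 (95% interval -0.17 to 0.16), and the response difference was -4.67 ± 0.10 SE, adjusted p = 3.21e-10. *K02E7.10* had 1.49, 1.58 and 0.977 CPM in untreated N2, 148, 137 and 159 CPM in extract-treated N2, 1.73, 2.36 and 2.04 CPM in untreated *old-1(ok1273)* and 2.58, 2.15 and 2.19 CPM in extract-treated *old-1(ok1273)*, a response difference of -6.62 ± 0.22 SE, adjusted p = 1.39e-08. *B0507.8* went from 0.894 ± 0.110 CPM to 518 ± 45.6 CPM in N2 and from 0.921 ± 0.694 CPM to 0.939 ± 0.192 CPM in *old-1(ok1273)* (n = 3 each), a response difference of -9.09 ± 0.57 SE, adjusted p = 1.20e-05.

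Other ORR genes with large differences were *F09C6.13* (-10.80 ± 1.33 SE, adjusted p = 1.52e-04), the F-box gene *fbxa-116* (-9.15 ± 0.65 SE, adjusted p = 1.28e-05), *F42C5.3* (-7.63 ± 0.79 SE, adjusted p = 1.49e-04), *droe-8* (-7.52 ± 0.66 SE, adjusted p = 9.92e-05) and *T20D4.7* (-6.84 ± 0.36 SE, adjusted p = 9.74e-07). *W04G5.16* was the called ORR gene that did not hold (adjusted p = 0.0367). Its transcript is short, 171 bases, and its reads summed to 1343 counts in treated N2 and 4 in treated *old-1(ok1273)* (ratio 366, 95% counting interval 142 to 1344). No fitted size is given for it, since untreated *old-1(ok1273)* held 2 counts. Each of these 6 genes stood under 2 CPM in the 3 groups other than treated N2.

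The response difference was not called for 8 ORR genes: *F56A6.5*, *Y71H2AR.2*, *chil-9*, *clec-203*, *old-2*, *pals-28*, *srw-23* and *thn-4*. In each of them at least 1 untreated or mutant group held 0 counts, so the ratio of ratios is undetermined, while the extract-treated groups were far apart and called in all 8. With limma on log2 CPM, where a pseudocount of 0.5 stands in for the zeros, all 50 ORR genes were called lower, and with DESeq2 49 were. *F56A6.5* had 9851 counts in treated N2 and 1 in treated *old-1(ok1273)* (ratio 10728, 95% counting interval 1925 to 423791). *Y71H2AR.2* had 5820 and 1 (ratio 6338, 1137 to 250394). *pals-28* had 2720 and 2 (ratio 1481, 409.6 to 12236). In these 3 genes nearly all counts came from treated N2. *clec-203*, a C-type lectin gene, had 2424 counts in treated N2 and 0 in treated *old-1(ok1273)*, at least 880.0-fold lower. *thn-4*, a thaumatin-like gene, had 293 and 0, at least 106.4-fold lower. *chil-9* had 599 and 3 (ratio 217, 74.1 to 1057) and *srw-23*, a chemoreceptor-like gene, 86 and 1 (ratio 93.7, 16.37 to 3742).

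**Figure D3:**
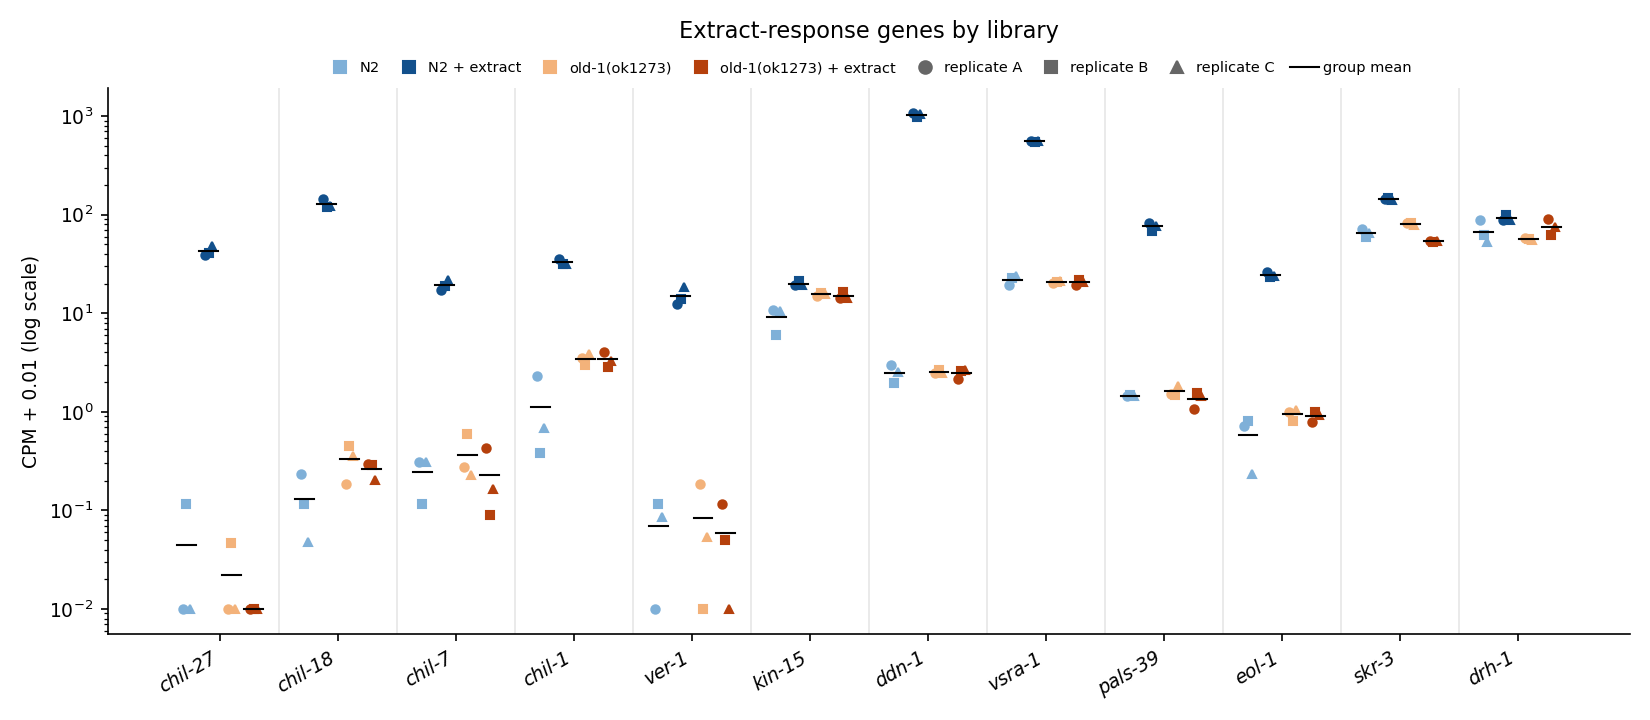
Levels of 12 genes (x axis) in the 12 libraries, as CPM with 0.01 added on a log y axis, with colours for the 4 groups, a mark for each replicate and a line at each group mean. In *ddn-1*, extract-treated N2 stands between 985 and 1073 CPM and the 9 other libraries under 3 CPM, whereas in *drh-1* the treated groups overlap.

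The *pals* genes encode proteins with a shared conserved signature, and *pals-22* and *pals-25* are known as opposing regulators of the intracellular pathogen response. Of 34 *pals* genes tested, 18 had a lower response (11.4% of all genes), none had a higher one, and 16 held (4.49% of all genes). Of the 34, 12 passed the filter on low counts only through treated N2, and among the other 22, 13 had a lower response. The median difference over the 34 was -3.71, and -4.20 with group counts under 3 set to 3, since 6 members had a group at 0. Outside the 8 ORR members, 11 of 26 were lower. *pals-39*, not an ORR member, had 1.45, 1.47 and 1.43 CPM in untreated N2, 82.1, 68.7 and 77.3 CPM in extract-treated N2, 1.51, 1.49 and 1.83 CPM in untreated *old-1(ok1273)* and 1.06, 1.56 and 1.42 CPM in extract-treated *old-1(ok1273)*. It was under 2 CPM in every library other than treated N2, a response difference of -5.96 ± 0.20 SE, adjusted p = 1.39e-08. *pals-14* had 0.446, 0.158 and 0.376 CPM in untreated N2, 32.8, 29.7 and 22.1 CPM in extract-treated N2, 1.06, 0.399 and 0.478 CPM in untreated *old-1(ok1273)* and 0.425, 0.638 and 0.769 CPM in extract-treated *old-1(ok1273)*, a response difference of -6.42 ± 0.58 SE, adjusted p = 3.53e-05.

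Among ORR members, the response differences were -5.05 ± 0.39 SE, adjusted p = 1.28e-05 for *pals-1*, -4.76 ± 0.26 SE, adjusted p = 1.68e-06 for *pals-37* and -5.62 ± 0.69 SE, adjusted p = 4.62e-04 for *pals-26*. *pals-29*, *pals-33* and *pals-9* were called lower too (adjusted p = 3.63e-04, 0.0240 and 0.0216), and since each had a group of 3 counts or fewer, their counts are given instead of a fitted size. *pals-29* had 1275 counts in treated N2 and 1 in treated *old-1(ok1273)* (ratio 1389, 95% counting interval 249 to 54888). *pals-33* had 3308 and 10 (ratio 360.3, 195.6 to 752) and *pals-9* 1049 and 11 (ratio 103.9, 57.8 to 209). *pals-5*, a common reporter gene for the intracellular pathogen response, had 696 counts in treated N2 and 1 in treated *old-1(ok1273)* (ratio 758.0, 95% counting interval 135.6 to 29981). *pals-22* and *pals-25* were expressed in all groups. *pals-22* had a response difference of -0.93 ± 0.27 SE, adjusted p = 0.0283 and *pals-25* of -1.17 ± 0.33 SE, adjusted p = 0.0256, and neither was called with untreated N2 replicates B and C left out (-0.47, adjusted p = 0.126, and -0.72, adjusted p = 0.0672).

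Further genes of the intracellular pathogen response moved in the same direction. Of 12 tested, 1 passed the filter on low counts only through treated N2. Extract raised 11 of the 12 in N2 (12.9% of all genes), and in *old-1(ok1273)* 1 was raised and 2 were lowered. The response was lower for 10 (11.4% of all genes), of which 8 held, with a median difference of -1.89, and only *pals-26* among the 12 is an ORR member. *eol-1*, which encodes a homolog of a mammalian RNA decapping enzyme, had 0.706, 0.789 and 0.226 CPM in untreated N2, 25.99, 23.5 and 23.6 CPM in extract-treated N2, 0.974, 0.798 and 1.04 CPM in untreated *old-1(ok1273)* and 0.778, 0.997 and 0.923 CPM in extract-treated *old-1(ok1273)*. The treated mutant stayed at the untreated level, and the response difference was -5.49 ± 0.43 SE, adjusted p = 1.28e-05.

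CUL-6, SKR-3, SKR-4 and RCS-1 are known as parts of a ubiquitin ligase complex of the intracellular pathogen response, and all 4 genes had a lower response. *skr-3* had 70.9, 59.2 and 65.5 CPM in untreated N2, 145, 148 and 141 CPM in extract-treated N2, 81.5, 82.8 and 79.3 CPM in untreated *old-1(ok1273)* and 53.6, 53.1 and 54.6 CPM in extract-treated *old-1(ok1273)*. It rose in N2 (1.15 ± 0.061 SE, adjusted p = 3.09e-07) and fell in *old-1(ok1273)* (-0.59 ± 0.061 SE, adjusted p = 4.76e-05), with no overlap between treated and untreated libraries in either genotype. *rcs-1* had 42.02, 37.3 and 39.7 CPM in untreated N2, 90.9, 82.1 and 87.2 CPM in extract-treated N2, 37.9, 41.9 and 37.9 CPM in untreated *old-1(ok1273)* and 30.5, 32.98 and 30.9 CPM in extract-treated *old-1(ok1273)*, and likewise rose in N2 (1.127) and fell in *old-1(ok1273)* (-0.32, adjusted p = 0.00569). The response differences were -1.74 ± 0.086 SE, adjusted p = 7.86e-07 for *skr-3* and -1.45 ± 0.095 SE, adjusted p = 5.03e-06 for *rcs-1*. *skr-4* went from 18.02 ± 2.38 CPM to 46.5 ± 4.63 CPM in N2 and from 17.3 ± 0.587 CPM to 16.6 ± 0.821 CPM in *old-1(ok1273)* (n = 3 each, response difference -1.42 ± 0.14 SE, adjusted p = 7.48e-05). *cul-6* went from 8.09 ± 0.643 CPM to 20.1 ± 1.05 CPM and from 6.501 ± 0.690 CPM to 5.76 ± 0.829 CPM (response difference -1.48 ± 0.18 SE, adjusted p = 2.76e-04). *drh-1*, which encodes the RIG-I-like RNA helicase that senses viral RNA, had 87.5, 61.9 and 52.6 CPM in untreated N2, 88.5, 99.0 and 88.8 CPM in extract-treated N2, 58.5, 56.1 and 55.4 CPM in untreated *old-1(ok1273)* and 90.4, 61.5 and 74.98 CPM in extract-treated *old-1(ok1273)*. The genotypes overlapped with and without extract, and neither its responses nor their difference was called (response difference -0.036 ± 0.24 SE, adjusted p = 0.929, 95% interval -0.57 to 0.50).

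Genes outside the ORR list made up most of the lost responses. Of the 419 genes raised in N2 without a called response in *old-1(ok1273)*, 377 were not ORR genes and 262 of those held. The largest difference with an estimable error among them was at *F09C6.3*, from 0.0625 ± 0.0783 CPM to 9.14 ± 1.72 CPM in N2 and from 0.302 ± 0.0479 CPM to 0.141 ± 0.0652 CPM in *old-1(ok1273)* (n = 3 each, response difference -8.05 ± 0.85 SE, adjusted p = 4.47e-05). Several others were picked after their values were seen. *B0507.6*, beside the ORR genes *B0507.7* and *B0507.8*, had 0.669, 0.684 and 1.39 CPM in untreated N2, 61.3, 53.2 and 48.2 CPM in extract-treated N2, 0.487, 0.544 and 0.609 CPM in untreated *old-1(ok1273)* and 0.425, 0.558 and 0.385 CPM in extract-treated *old-1(ok1273)*, a response difference of -6.12 ± 0.40 SE, adjusted p = 5.03e-06. The thioredoxin gene *trx-5* had a response difference of -6.31 ± 0.91 SE, adjusted p = 5.70e-04, *W09G12.8* of -5.14 ± 0.87 SE, adjusted p = 0.00572 and *T10C6.15* of -4.49 ± 0.55 SE, adjusted p = 4.22e-04. *rabr-4* had 693 counts in treated N2 and 8 in treated *old-1(ok1273)* (ratio 94.3, 95% counting interval 47.6 to 219).

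The counts of the families that follow are to be read against the shares over all genes tested, of which 11.4% had a lower and 13% a higher response, while 4.49% and 3.95% held. F-box A genes encode proteins that recruit substrates to ubiquitin ligases. Of 141 tested, 40 had a lower response (28.4%) and 3 a higher one, 29 held as lower, and the median difference was -0.69. Of the 141, 7 passed the filter on low counts only through treated N2, and among the other 134, 35 had a lower response. Outside the 3 ORR members, 37 of 138 were lower. In N2 extract raised 36 and lowered 13, and in *old-1(ok1273)* it raised none and lowered 17. *fbxa-135* had 0.186, 0.263 and 0.226 CPM in untreated N2, 6.76, 4.12 and 3.30 CPM in extract-treated N2, 0.930, 1.16 and 1.39 CPM in untreated *old-1(ok1273)* and 0.708, 0.718 and 1.08 CPM in extract-treated *old-1(ok1273)*, a response difference of -4.85 ± 0.50 SE, adjusted p = 7.97e-05. It was also higher in untreated *old-1(ok1273)* than in untreated N2 (2.36 ± 0.39 SE, adjusted p = 8.36e-04). *fbxa-182* and *fbxa-111* had response differences of -3.08 ± 0.27 SE, adjusted p = 3.38e-05 and -2.99 ± 0.29 SE, adjusted p = 5.45e-05.

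MATH and BATH genes, many of which encode adaptors of another class of ubiquitin ligases, had 9 lower and 2 higher responses among 62 tested, with 6 held as lower and a median of -0.30. The lower share, 14.5%, was near the 11.4% of all genes. Of the 62, 4 passed the filter on low counts only through treated N2, and among the other 58, 8 had a lower response. *math-49* had 0.483, 0.473 and 0.489 CPM in untreated N2, 15.5, 14.9 and 16.23 CPM in extract-treated N2, 0.399, 0.326 and 0.609 CPM in untreated *old-1(ok1273)* and 0.354, 0 and 0.269 CPM in extract-treated *old-1(ok1273)*, a response difference of -6.03 ± 0.74 SE, adjusted p = 2.88e-04. Treated N2 was the group set apart. *math-39* (-0.91 ± 0.20 SE, adjusted p = 0.00885) and *bath-36* (-1.35 ± 0.30 SE, adjusted p = 0.00813) were also lower, and *math-33* was higher (0.48 ± 0.075 SE, adjusted p = 0.00123), a call that was lost with both the length correction and untreated N2 replicates B and C left out.

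Of the families that detoxify small molecules, 13 of 68 cytochrome P450 genes had a lower response (19.1%, against 11.4% of all genes) and 2 a higher one (8 and 2 held, median -0.36). *cyp-34A9* had 10.2, 7.94 and 7.33 CPM in untreated N2, 27.95, 23.02 and 15.5 CPM in extract-treated N2, 9.74, 9.57 and 11.1 CPM in untreated *old-1(ok1273)* and 8.91, 9.81 and 6.77 CPM in extract-treated *old-1(ok1273)*, a response difference of -1.63 ± 0.30 SE, adjusted p = 0.00348. *cyp-13A3* (-3.20 ± 0.55 SE, adjusted p = 0.00212), *cyp-14A5* (-1.08 ± 0.15 SE, adjusted p = 7.25e-04) and *cyp-33E1* (-0.97 ± 0.18 SE, adjusted p = 0.00375) were lower as well. Among 65 UDP-glucuronosyltransferases, 6 were lower and 3 higher (4 and 3 held, median -0.26), and with untreated N2 replicates B and C left out these counts were 5 and 8. Their shares of 9.23% lower and 4.62% higher were below the 11.4% and 13% of all genes. *ugt-4* rose in N2 and fell in *old-1(ok1273)* (1.43 and -0.92, response difference -2.35 ± 0.42 SE, adjusted p = 0.00304), *ugt-5* and *ugt-17* had response differences of -0.98 ± 0.19 SE, adjusted p = 0.00392 and -0.79 ± 0.17 SE, adjusted p = 0.00803, and that of *ugt-54* (-2.79 ± 0.52 SE, adjusted p = 0.00412) did not hold. Of 42 glutathione S-transferases, 2 were lower (4.76%) and 3 higher (7.14%), with 0 and 2 held, also below those shares. *gst-24* (0.92 ± 0.18 SE, adjusted p = 0.00523) and *gst-13* (0.58 ± 0.089 SE, adjusted p = 0.00114) held as higher, and *gst-7* (-0.41 ± 0.12 SE, adjusted p = 0.0253) and *gst-41* (-1.01 ± 0.30 SE, adjusted p = 0.0292) were lower without holding.

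Nuclear hormone receptors, ligand-regulated transcription factors, had 25 lower and 10 higher responses among 221 tested (12 and 8 held, median -0.32). The share lower, 11.3%, was close to that of all genes (11.4%), and the share higher, 4.53%, was below the 13% of all genes. With untreated N2 replicates B and C left out, the direction of the count turned, to 14 lower and 18 higher. *nhr-42* had 14.97, 11.6 and 8.68 CPM in untreated N2, 29.4, 26.3 and 23.8 CPM in extract-treated N2, 27.2, 27.99 and 29.8 CPM in untreated *old-1(ok1273)* and 21.4, 19.98 and 15.1 CPM in extract-treated *old-1(ok1273)*. It rose in N2 and fell in *old-1(ok1273)*, and the mutant stood above N2 before extract (1.27 ± 0.18 SE, adjusted p = 4.52e-04). The response difference of *nhr-42* was -1.76 ± 0.25 SE, adjusted p = 8.95e-04, and it held. *nhr-88* had a response difference of -1.22 ± 0.20 SE, adjusted p = 0.00217, with treated libraries of the genotypes overlapping and untreated *old-1(ok1273)* above untreated N2 (0.92 ± 0.14 SE, adjusted p = 8.55e-04). *nhr-3* (1.07 ± 0.17 SE, adjusted p = 0.00133) and *nhr-48* (0.60 ± 0.10 SE, adjusted p = 0.00219) were higher.

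**Figure D4:**
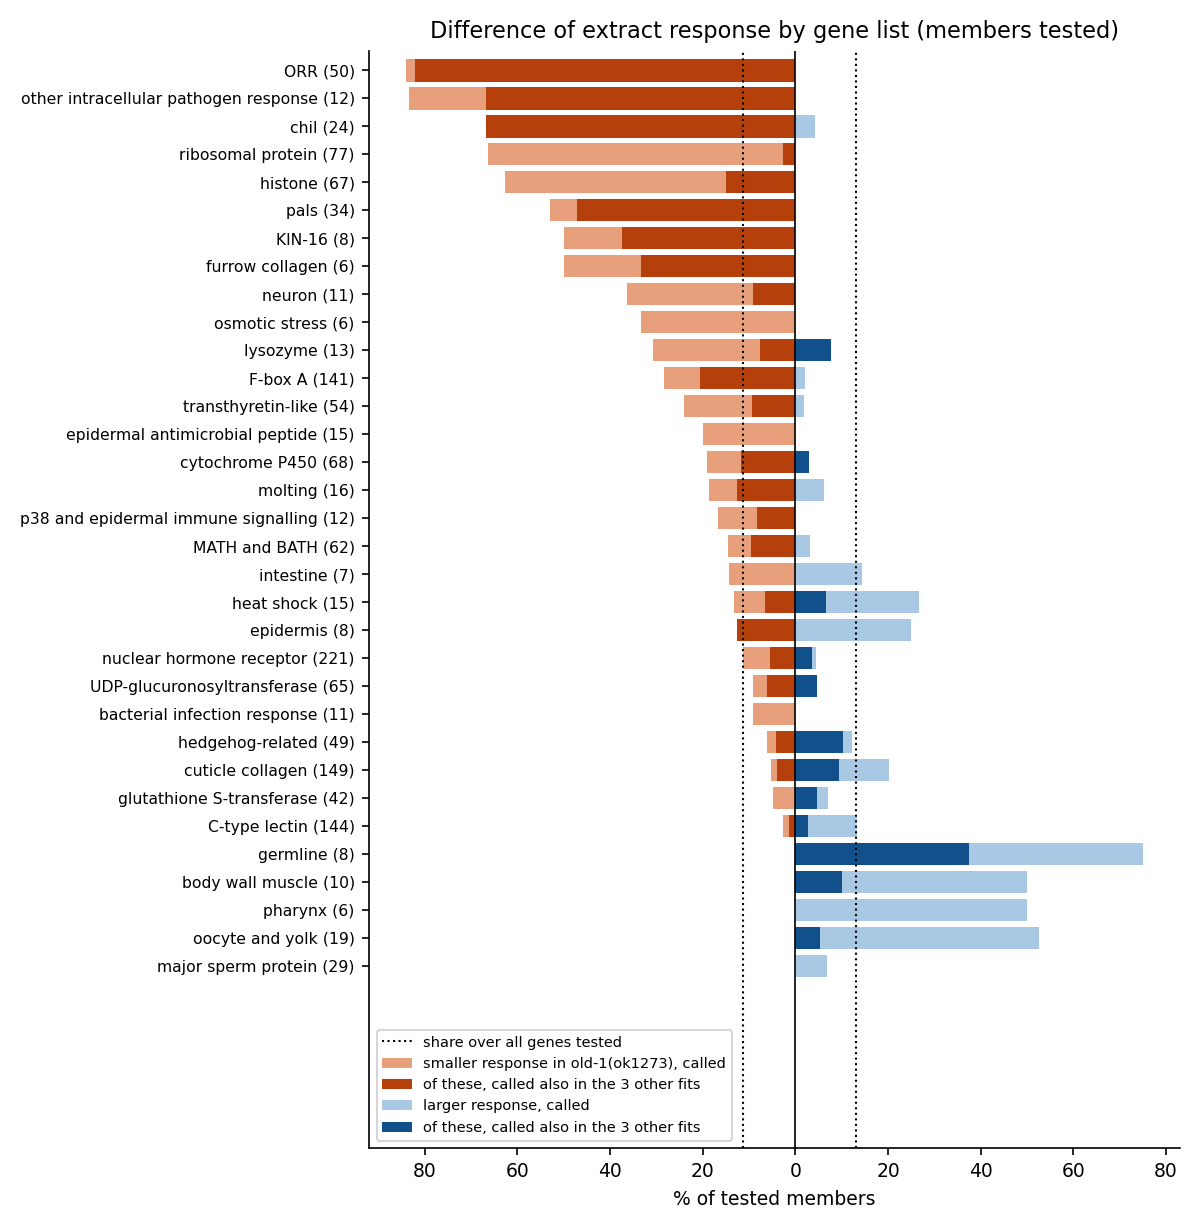
For each gene list with at least 6 members tested, the bars give the percent of tested members (number in brackets) called with a lower (left) or higher (right) response in *old-1(ok1273)*, the dark part of each bar is the percent that held in the 3 further fits, and the dotted lines mark the shares over all genes tested. The ORR list stands at 84.0% lower and the *chil* list at 66.7%, against 11.4% over all genes tested.

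For the smaller lists too, the shares over all genes were 11.4% lower and 13% higher, with 4.49% and 3.95% held. Of 54 transthyretin-like genes, 13 were lower (24.1%) and 1 higher, and 5 held as lower (median -0.37), among them *ttr-49* (-1.30 ± 0.25 SE, adjusted p = 0.00418), *ttr-37* (-1.16 ± 0.21 SE, adjusted p = 0.00301), *ttr-17* (-0.90 ± 0.18 SE, adjusted p = 0.00543) and *ttr-54* (-0.88 ± 0.17 SE, adjusted p = 0.00405). Of 13 lysozyme genes, 4 were lower and 1 higher, with *lys-3* (-1.93 ± 0.57 SE, adjusted p = 0.0295) held as lower and *ilys-5* (0.80 ± 0.18 SE, adjusted p = 0.0109) as higher. *lys-4* (-0.33 ± 0.082 SE, adjusted p = 0.0156) and *ilys-4* (-0.63 ± 0.11 SE, adjusted p = 0.00303) were the other named lower calls and did not hold. Of 15 epidermal antimicrobial peptide genes, 3 were lower and none held: *nlp-31* (-0.96 ± 0.20 SE, adjusted p = 0.00662), *cnc-3* (-0.59 ± 0.16 SE, adjusted p = 0.0226) and *cnc-4* (-0.84 ± 0.24 SE, adjusted p = 0.0276). Of 11 genes of the response to bacterial infection, 1 was lower (*irg-2*, -1.48 ± 0.43 SE, adjusted p = 0.0264) and none higher. Of 3 thaumatin-like genes tested, none was called.

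Among 12 genes of p38 and epidermal immune signalling, 2 were lower (11.4% of all genes were), *sta-2* (-1.19 ± 0.28 SE, adjusted p = 0.0112), which encodes an epidermal STAT-like transcription factor, and *dbl-1* (-0.43 ± 0.14 SE, adjusted p = 0.0404). *sta-2* held. It had 15.7, 9.68 and 8.83 CPM in untreated N2, 18.1, 19.9 and 15.2 CPM in extract-treated N2, 24.2, 25.6 and 22.2 CPM in untreated *old-1(ok1273)* and 17.9, 17.1 and 13.9 CPM in extract-treated *old-1(ok1273)*. Treated libraries of the genotypes overlapped, and untreated *old-1(ok1273)* lay above untreated N2 (1.07 ± 0.20 SE, adjusted p = 0.00203). Of 6 osmotic stress genes, *osr-1* (-0.79 ± 0.25 SE, adjusted p = 0.0390) and *osm-11* (-0.63 ± 0.13 SE, adjusted p = 0.00678) were lower and neither held. Of 15 heat shock genes, 2 were lower, the small heat shock genes *hsp-12.6* (-2.76 ± 0.56 SE, adjusted p = 0.00555) and *hsp-12.3* (-0.95 ± 0.23 SE, adjusted p = 0.0139), and 4 higher (13% of all genes were), among them the endoplasmic reticulum chaperones *hsp-3* (0.57 ± 0.070 SE, adjusted p = 3.15e-04) and *hsp-4* (0.69 ± 0.17 SE, adjusted p = 0.0147). Of these, *hsp-12.6* held as lower and *hsp-3* as higher.

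The furrow collagens, whose loss is known to switch on stress responses of the epidermis, had 3 lower responses among 6 tested (11.4% of all genes were lower), and 2 held. *dpy-9* had 258, 185 and 139 CPM in untreated N2, 309, 322 and 341 CPM in extract-treated N2, 372, 348 and 374 CPM in untreated *old-1(ok1273)* and 266, 300.4 and 293 CPM in extract-treated *old-1(ok1273)*. The response difference was -1.09 ± 0.23 SE, adjusted p = 0.00832. The untreated mutant exceeded untreated N2 (0.91 ± 0.17 SE, adjusted p = 0.00212), and between the treated groups no difference was called (-0.18). *dpy-2* (-1.04 ± 0.27 SE, adjusted p = 0.0205) held and *dpy-3* (-0.88 ± 0.27 SE, adjusted p = 0.0349) did not. Of 16 molting genes, 3 were lower (18.8%) and 1 higher (*lin-42*, -0.71 ± 0.19 SE, adjusted p = 0.0232, *noah-2*, -0.71 ± 0.20 SE, adjusted p = 0.0278, *nekl-3*, -0.44 ± 0.13 SE, adjusted p = 0.0311, and *fbn-1*, 0.72 ± 0.21 SE, adjusted p = 0.0276). With untreated N2 replicates B and C left out, that count turned to 2 lower and 4 higher. Of 49 hedgehog-related genes, 3 were lower (6.122%) and 6 higher (12.2%), no more than over all genes (11.4% and 13%), and 2 and 5 held, with *grl-17* at -3.49 ± 0.40 SE, adjusted p = 1.96e-04, *grd-6* at 1.46 ± 0.24 SE, adjusted p = 0.00188, *wrt-8* at 1.47 ± 0.24 SE, adjusted p = 0.00198 and *grd-2* at 1.35 ± 0.22 SE, adjusted p = 0.00174.

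Of 149 cuticle collagens, 8 were lower (5.37%, against 11.4% of all genes) and 30 higher (20.1%, against 13%), with 6 and 14 held and a median of 0.44. Without untreated N2 replicates B and C, 11 were lower and 16 higher, with a median of 0.07. Of the 10 genes with the highest response differences and an estimable error, 6 encode collagens. *col-175* had 21.1, 1064 and 1229 CPM in untreated N2, 20.5, 15.8 and 20.9 CPM in extract-treated N2, 4.96, 1.56 and 0.522 CPM in untreated *old-1(ok1273)* and 12.84, 7.02 and 27.5 CPM in extract-treated *old-1(ok1273)*. Untreated N2 replicates B and C stood far above the rest, and replicate A was near the level of treated N2. The response difference was 8.11 ± 1.78 SE, adjusted p = 0.0147, and with replicates B and C left out it was 2.93 and not called (adjusted p = 0.132). The same held for *col-138*, *col-49*, *rol-1*, *bli-6*, *Y51H7C.13*, *E01G4.6*, *C14F11.4* and *ttr-34*, with response differences of 6.37 to 8.03, none of them called without replicates B and C. *col-38* stayed called without them (6.63 with and 2.06 without). *col-133* had 323, 704 and 992 CPM in untreated N2, 124, 174.1 and 141 CPM in extract-treated N2, 188, 184 and 187 CPM in untreated *old-1(ok1273)* and 206, 266 and 231 CPM in extract-treated *old-1(ok1273)*, a response difference of 2.53 ± 0.45 SE, adjusted p = 0.00431, which was 1.47 without replicates B and C (adjusted p = 0.00184). *col-155*, *col-157* and *col-115* also held as higher, at 1.56 ± 0.21 SE, adjusted p = 7.25e-04, 1.16 ± 0.15 SE, adjusted p = 3.42e-04 and 1.01 ± 0.16 SE, adjusted p = 0.00130.

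Markers of the maturing germ line moved with untreated N2. Of 19 oocyte and yolk genes, 10 had a higher response (13% of all genes), with a median of 1.82, and without untreated N2 replicates B and C these were 4 and 0.47. *cbd-1* (1.82 ± 0.38 SE, adjusted p = 0.00760), *chs-1* (1.17 ± 0.25 SE, adjusted p = 0.00798) and *spn-4* (0.67 ± 0.18 SE, adjusted p = 0.0221) were among them and did not hold, and *oma-1* (1.37 ± 0.32 SE, adjusted p = 0.0122) was the member that held. Of 29 major sperm protein genes, 2 were called higher (13% of all genes were), *msp-3* (3.53 ± 1.08 SE, adjusted p = 0.0399) and *msp-38* (3.53 ± 1.05 SE, adjusted p = 0.0338), and 27 were lowered by extract in N2. The median difference was 3.13, and without replicates B and C it was -0.43 with no member called. *msp-3* had 2.27, 30.7 and 45.5 CPM in untreated N2, 3.66, 4.12 and 1.996 CPM in extract-treated N2, 5.40, 6.05 and 6.74 CPM in untreated *old-1(ok1273)* and 7.5, 8.37 and 10.3 CPM in extract-treated *old-1(ok1273)*. Untreated N2 replicates B and C stood above all the other libraries. Major sperm protein genes are near-identical copies, and the division of reads between them is uncertain.

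Of 8 germline genes, 6 were higher (13% of all genes were), and 3 held. *rec-8*, a meiotic cohesin subunit gene, had 37.7, 42.5 and 43.2 CPM in untreated N2, 40.2, 38.4 and 36.6 CPM in extract-treated N2, 22.8, 20.6 and 22.4 CPM in untreated *old-1(ok1273)* and 38.8, 39.2 and 40.03 CPM in extract-treated *old-1(ok1273)*. Untreated *old-1(ok1273)* was the low group, and the response difference was 0.94 ± 0.098 SE, adjusted p = 8.99e-05. *glp-1*, the germline Notch receptor gene, had 54.7, 57.2 and 52.5 CPM in untreated N2, 50.1, 60.7 and 58.6 CPM in extract-treated N2, 23.3, 21.1 and 20.4 CPM in untreated *old-1(ok1273)* and 59.6, 52.8 and 57.9 CPM in extract-treated *old-1(ok1273)*, a response difference of 1.35 ± 0.12 SE, adjusted p = 2.84e-05, and its treated libraries overlapped between the genotypes. *syp-1* (0.57 ± 0.11 SE, adjusted p = 0.00326) held, and *glh-1* (0.70 ± 0.14 SE, adjusted p = 0.00592) did not.

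The *glp-1* pattern was shared by genes with an extract response called in *old-1(ok1273)* alone. There were 91 genes raised by 1 or more in *old-1(ok1273)*, not called in N2 and with a higher response, and 73 held. The untreated mutant level entered this selection, so the untreated values describe the 91 genes and support nothing. In all 91 the untreated groups did not overlap, and over all genes tested they did not at 7192 of 16264. Of the 91, 90 were called lower in untreated *old-1(ok1273)* than in untreated N2 (17.2% of all genes were). In 75 of the 91 the extract-treated libraries overlapped between the genotypes, while at 6295 of all genes tested they did not. The 91 genes had a median transcript length of 3781 bases, against 1927 over all genes called higher. *scc-2*, a cohesin loader gene, had 98.6, 101 and 102 CPM in untreated N2, 86.5, 108 and 105 CPM in extract-treated N2, 24.3, 20.3 and 20.1 CPM in untreated *old-1(ok1273)* and 118, 104.3 and 117 CPM in extract-treated *old-1(ok1273)*. The mutant without extract was the group that stood apart, and the response difference was 2.402 ± 0.13 SE, adjusted p = 1.68e-06. *dpy-22*, a Mediator subunit gene, had 88.6, 69.2 and 61.2 CPM in untreated N2, 44.2, 83.2 and 80.5 CPM in extract-treated N2, 17.7, 14.2 and 16.04 CPM in untreated *old-1(ok1273)* and 76.1, 58.2 and 70.8 CPM in extract-treated *old-1(ok1273)*, a response difference of 2.17 ± 0.32 SE, adjusted p = 0.00111. Similar values were found for *mat-2* (1.61 ± 0.12 SE, adjusted p = 1.10e-05), *mog-5* (1.27 ± 0.093 SE, adjusted p = 9.39e-06), *let-716* (1.22 ± 0.087 SE, adjusted p = 7.86e-06), *K02C4.3* (1.21 ± 0.085 SE, adjusted p = 6.53e-06), *cacn-1* (1.14 ± 0.077 SE, adjusted p = 5.46e-06), *cul-1* (1.11 ± 0.085 SE, adjusted p = 1.20e-05) and *ubr-1* (1.02 ± 0.061 SE, adjusted p = 2.25e-06). The length trend of the untreated mutant libraries runs in the same direction, and 78 of the 91 were called with that trend taken out. The part of the trend in these responses was not tested.

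Muscle genes were among the longest tested. Of 10 body wall muscle genes 5 were higher (13% of all genes were) and 1 held, and of 6 pharyngeal genes 3 were higher and none held. *unc-22*, the giant twitchin gene, had 533, 396 and 352 CPM in untreated N2, 534, 609.9 and 578 CPM in extract-treated N2, 196.1, 179.6 and 187 CPM in untreated *old-1(ok1273)* and 528, 429 and 486 CPM in extract-treated *old-1(ok1273)*. Its response difference was 0.93 ± 0.19 SE, adjusted p = 0.00561, and 0.034 with the length trend taken out (adjusted p = 0.798). *myo-3* (0.58 ± 0.079 SE, adjusted p = 5.37e-04), *unc-89* (0.79 ± 0.16 SE, adjusted p = 0.00580), *myo-5* (0.67 ± 0.12 SE, adjusted p = 0.00294), *myo-1* (0.58 ± 0.099 SE, adjusted p = 0.00221) and *myo-2* (0.42 ± 0.10 SE, adjusted p = 0.0154) did not hold, and *mup-2* (0.37 ± 0.065 SE, adjusted p = 0.00260) did. Of 11 neuronal genes, 4 were lower, against 11.4% of all genes (*egl-21*, -0.75 ± 0.13 SE, adjusted p = 0.00265, *sbt-1*, -0.72 ± 0.13 SE, adjusted p = 0.00262, *egl-3*, -0.49 ± 0.14 SE, adjusted p = 0.0251, and *snb-1*, -0.44 ± 0.081 SE, adjusted p = 0.00328), and *egl-21* held. Intestinal markers gave 1 lower and 1 higher call among 7 (*vha-6*, -0.22 ± 0.062 SE, adjusted p = 0.0263, and *ifb-2*, 0.28 ± 0.089 SE, adjusted p = 0.0402). Epidermal markers gave 1 lower and 2 higher calls among 8 (*wrt-10*, -0.83 ± 0.18 SE, adjusted p = 0.00760, *lin-26*, 0.38 ± 0.080 SE, adjusted p = 0.00724, and *elt-1*, 0.46 ± 0.13 SE, adjusted p = 0.0290), of which *wrt-10* held.

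Short transcripts showed the opposite. Of 77 ribosomal protein genes, 51 had a lower response (66.2%, against 11.4% of all genes) and none a higher one, with a median of -0.29, and 2 held. *rpl-22*, of 439 bases, had 1386, 1419.5 and 1432 CPM in untreated N2, 1445, 1388 and 1419.7 CPM in extract-treated N2, 2103, 2024 and 2034 CPM in untreated *old-1(ok1273)* and 1519.9, 1626 and 1549 CPM in extract-treated *old-1(ok1273)*. The untreated mutant was the high group, and the response difference was -0.40 ± 0.056 SE, adjusted p = 6.54e-04. In all, 66 of the 77 were lowered by extract in *old-1(ok1273)* and 2 in N2. The shortest 10% of all genes had a median difference of -0.29 as well. *rps-19* (-0.38 ± 0.062 SE, adjusted p = 0.00169), *rpl-11.2* (-0.55 ± 0.082 SE, adjusted p = 9.30e-04) and *rpl-25.1* (-0.61 ± 0.096 SE, adjusted p = 0.00131) did not hold.

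Of 67 histone genes, 42 were lower (62.7%, against 11.4% of all genes) and none higher, with a median of -1.02, and 10 held. Extract raised 41 of them in N2 and none in *old-1(ok1273)*. The 3 identical-copy genes *ZK131.1*, *ZK131.4* and *ZK131.8* each had 2.303, 2.79 and 2.56 CPM in untreated N2, 7.37, 5.91 and 5.64 CPM in extract-treated N2, 3.28, 2.94 and 3.09 CPM in untreated *old-1(ok1273)* and 2.09, 2.47 and 2.11 CPM in extract-treated *old-1(ok1273)*, a response difference of -1.78 ± 0.24 SE, adjusted p = 5.81e-04. Their counts are the same because reads from identical copies were divided equally, so they are 1 observation. *his-41* (-0.55 ± 0.076 SE, adjusted p = 6.10e-04) did not hold. Of 144 C-type lectin genes, 4 were lower (2.78%) and 19 higher (13.2%, as over all genes, 13%), and without untreated N2 replicates B and C the count turned to 9 lower and 6 higher. *clec-1* (-0.50 ± 0.12 SE, adjusted p = 0.0150) held as lower and *clec-186* (1.05 ± 0.15 SE, adjusted p = 8.38e-04) as higher, while *clec-47* (-0.50 ± 0.077 SE, adjusted p = 0.00114) and *clec-187* (0.55 ± 0.13 SE, adjusted p = 0.0134) did not hold.

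Opposite responses were called at 27 genes raised and 9 genes lowered by 1 or more in N2, and 27 and 8 of these held. In 23 of the 27 the extract-treated libraries did not overlap between the genotypes, and over all genes tested they did not at 6295 of 16264. The same libraries entered the choice of the 27. *T28A11.13* had 0.409, 0.210 and 0.188 CPM in untreated N2, 7.79, 6.89 and 8.06 CPM in extract-treated N2, 0.664, 0.435 and 0.304 CPM in untreated *old-1(ok1273)* and 0.0708, 0.239 and 0.115 CPM in extract-treated *old-1(ok1273)*. It rose in N2 and fell in *old-1(ok1273)* from a low level, with a response difference of -6.47 ± 0.63 SE, adjusted p = 4.47e-05. *pals-6* had 2.56, 1.105 and 1.35 CPM in untreated N2, 37.4, 27.9 and 20.8 CPM in extract-treated N2, 3.28, 4.39 and 3.39 CPM in untreated *old-1(ok1273)* and 1.95, 1.99 and 1.73 CPM in extract-treated *old-1(ok1273)*, a rise of 4.07 in N2, an *old-1(ok1273)* response of -0.96 (adjusted p = 0.0382) and a response difference of -5.04 ± 0.41 SE, adjusted p = 2.61e-05. *srlf-34* (-3.61 ± 0.23 SE, adjusted p = 5.03e-06), *F42C5.4* (-2.01 ± 0.18 SE, adjusted p = 3.15e-05) and *C14B1.3* (-1.65 ± 0.14 SE, adjusted p = 2.97e-05) followed the same order. *F26H9.5* went the other way, with 131, 164 and 158.2 CPM in untreated N2, 63.1, 72.9 and 75.4 CPM in extract-treated N2, 55.2, 56.1 and 49.6 CPM in untreated *old-1(ok1273)* and 90.2, 80.2 and 87.1 CPM in extract-treated *old-1(ok1273)*. It fell in N2 and rose in *old-1(ok1273)*, a response difference of 1.78 ± 0.13 SE, adjusted p = 1.10e-05.

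The mutant did respond to extract. Extract raised 20 genes by 2 or more on the log2 scale in both genotypes, none of them ORR genes. The response was called lower in the mutant at 2 of the 20, *dod-3* and *M02E1.4*, while 11.4% of all genes were called lower. The same libraries entered the choice of the 20, so this count describes these genes and is no test. These genes were named after their values were seen, apart from *T16G1.7*, *lipl-1* and *EGAP9.3*. *lact-6*, a gene of the beta-lactamase-like family, had 0.149, 0.210 and 0.113 CPM in untreated N2, 32.1, 26.05 and 30.2 CPM in extract-treated N2, 0.0443, 0.290 and 0.348 CPM in untreated *old-1(ok1273)* and 38.8, 27.9 and 24.03 CPM in extract-treated *old-1(ok1273)*. The treated groups overlapped, as did the untreated ones, and the response difference was -0.55 ± 0.66 SE, adjusted p = 0.547 (95% interval -2.01 to 0.91). The thaumatin-like genes *thn-1* and *thn-2*, relatives of plant antifungal proteins, rose in both genotypes. *thn-1* had 0.260, 0.579 and 0.865 CPM in untreated N2, 57.7, 23.3 and 29.6 CPM in extract-treated N2, 0.620, 0.725 and 0.956 CPM in untreated *old-1(ok1273)* and 31.9, 68.8 and 58.5 CPM in extract-treated *old-1(ok1273)*, a response difference of 0.096 ± 0.80 SE, adjusted p = 0.945 (95% interval -1.67 to 1.86). *thn-2* went from 12.57 ± 4.08 CPM to 227 ± 89.04 CPM in N2 and from 13.2 ± 1.30 CPM to 274 ± 73.0 CPM in *old-1(ok1273)* (n = 3 each, 95% interval of the difference -0.83 to 1.22). The third family member tested was *thn-4*, the ORR gene described above, with 0 counts in the treated mutant.

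*clec-70* went from 2.097 ± 0.853 CPM to 48.8 ± 6.86 CPM in N2 and from 1.23 ± 0.0376 CPM to 43.1 ± 3.43 CPM in *old-1(ok1273)* (n = 3 each, response difference 0.62 ± 0.31 SE, adjusted p = 0.154). *ugt-15* rose by 4.36 in N2 and by 4.36 in *old-1(ok1273)*, with a 95% interval of the difference of -1.22 to 1.21. *cpt-3*, a carnitine palmitoyltransferase gene, rose by 5.99 and 5.17, and *F42A10.7* by 3.35 and 3.85. The intervals of most of these differences were wide, -4.22 to 2.58 for *cpt-3*, so for several of them a difference of 1 log2 unit lay within the interval. *T16G1.7* had 11.2, 10.8 and 14.6 CPM in untreated N2, 154, 135 and 166 CPM in extract-treated N2, 13.9, 12.7 and 12 CPM in untreated *old-1(ok1273)* and 154, 141 and 130.1 CPM in extract-treated *old-1(ok1273)*. Its groups overlapped between genotypes with and without extract, and the interval of its difference was narrow, at -0.53 to 0.20. *lipl-1*, a lysosomal lipase gene, rose by 3.26 and 3.30 (95% interval of the difference -0.56 to 0.64) and *EGAP9.3* by 2.302 and 2.33 (-0.46 to 0.51).

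Smaller shared increases were seen at *F10C2.3* (2.16 in N2 and 1.78 in *old-1(ok1273)*), *F07C3.9* (1.75 and 1.55), *M01A8.1* (1.62 and 1.67) and *sqrd-1*, which encodes a sulfide-oxidizing enzyme (1.66 and 1.87). *cpt-5* rose in both and more in the mutant (1.72 and 2.39, response difference 0.67 ± 0.13 SE, adjusted p = 0.00476). A partial response was seen at *dod-3*, a gene known from insulin signalling, which had 2.79, 1.58 and 1.128 CPM in untreated N2, 104.2, 77.4 and 61.8 CPM in extract-treated N2, 6.73, 8.27 and 8.30 CPM in untreated *old-1(ok1273)* and 43.4, 39.4 and 28.1 CPM in extract-treated *old-1(ok1273)*. It rose in both genotypes and its response difference was -3.20 ± 0.41 SE, adjusted p = 4.87e-04. *ilys-3*, an invertebrate lysozyme gene, had 1.49, 1.05 and 0.489 CPM in untreated N2, 36.6, 22.03 and 24.3 CPM in extract-treated N2, 1.42, 1.67 and 1.09 CPM in untreated *old-1(ok1273)* and 8.46, 18.3 and 15.7 CPM in extract-treated *old-1(ok1273)*. The treated groups did not overlap, and the response difference was not called (-1.44 ± 0.55 SE, adjusted p = 0.0720).

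Extract lowered 29 genes by 1 or more in both genotypes. *Y51F10.7* had 268, 276 and 255 CPM in untreated N2, 44.6, 62.7 and 64.4 CPM in extract-treated N2, 324, 303 and 303 CPM in untreated *old-1(ok1273)* and 37.8, 56.7 and 84.5 CPM in extract-treated *old-1(ok1273)*. It fell in both, and the 95% interval of the response difference was -0.89 to 0.57. *scav-5*, a scavenger receptor gene, fell by 1.62 in N2 and by 1.75 in *old-1(ok1273)* on the log2 scale. Chosen after their values were seen, the nuclear hormone receptor gene *nhr-8* fell by 1.32 and 1.22, the lysozyme gene *lys-2* by 1.04 and 1.07, and *C17F4.7* by 1.26 and 1.29. The 95% intervals of these differences were -0.16 to 0.36, -0.26 to 0.19 and -0.34 to 0.26.

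**Figure D5:**
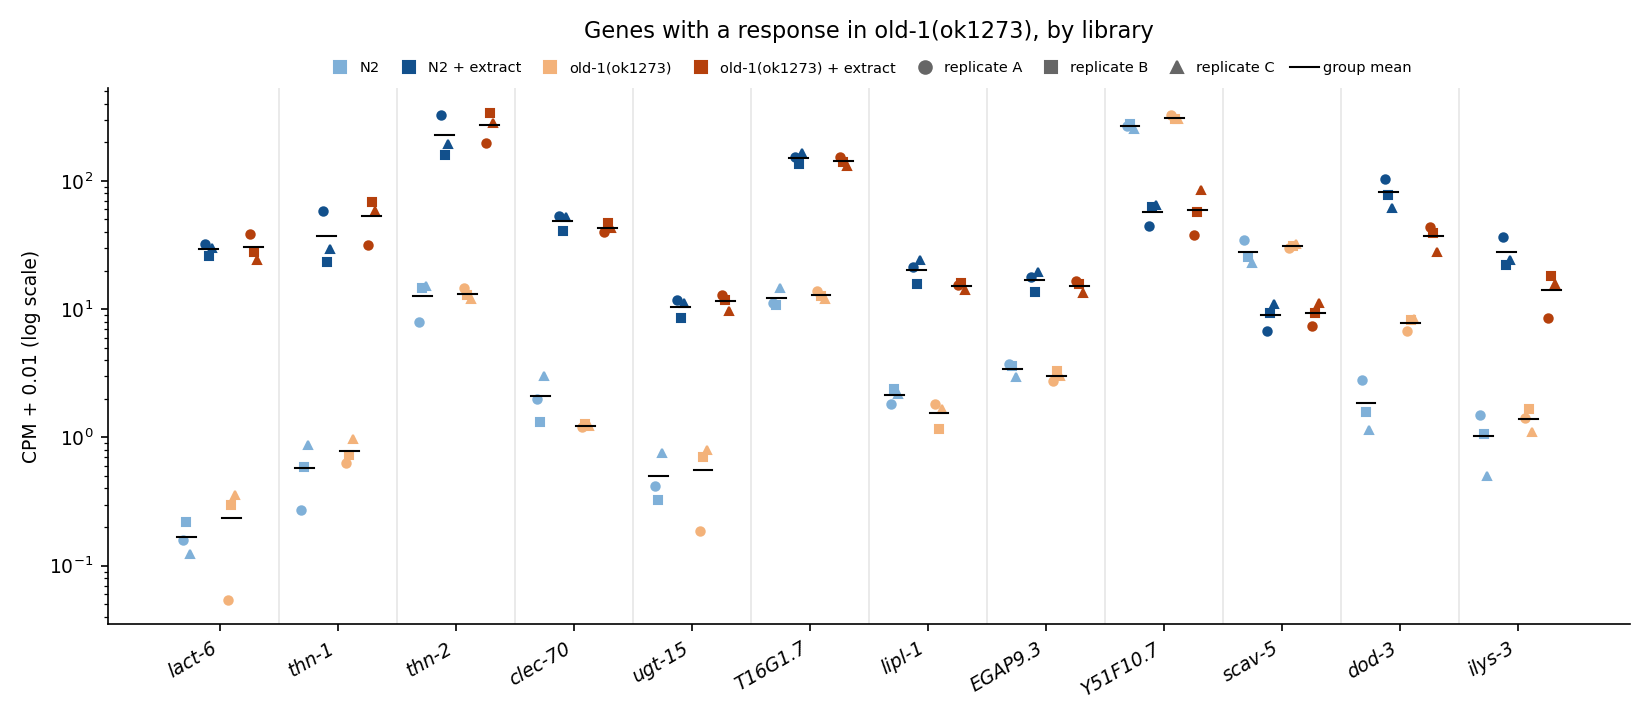
Levels of 12 genes (x axis) in the 12 libraries, as CPM with 0.01 added on a log y axis, with colours for the 4 groups, a mark for each replicate and a line at each group mean. *thn-1*, *thn-2*, *lact-6* and *T16G1.7* overlap between the genotypes in treated animals, whereas *dod-3* stands lower in treated *old-1(ok1273)* (28.1 to 43.4 CPM) than in treated N2 (61.8 to 104.2 CPM).

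By position, chromosome V held 213 of the 730 genes that held as lower. That is 6.16% of the 3458 genes tested there, against 2.94% on chromosome I, 4.34% on II, 4.43% on III, 4.15% on IV and 4.33% on X. Of genes that held and had a response lower by 2 or more on the log2 scale, 87 were on V (2.52% of those tested) and 7 on X (0.303%). The part of the gene families of the lists above in the chromosome V count was not tested, and neighbouring genes are not independent. Of the 730, 577 belonged to none of the lists of gene families and pathways.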

How the data were processed

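RNA of whole L4 animals was sequenced by a pair of providers, and which library went to which is not given in the sources used here. The authors used kallisto with the WormBase WS283 transcriptome for alignment, and sleuth for testing (versions not given in the sources used here). The deposited files hold kallisto's estimated counts per transcript, not normalized between libraries, with transcript and effective lengths (bases) that the authors also deposited. The 12 libraries of the contrast were analysed, the 6 *flor-1* libraries entered 1 alternative only, and the 12 files of the overexpression experiments were not used here.

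Transcripts were joined to genes with Ensembl release 115 (WBcel235): 30413 by transcript name, 6631 by sequence name, while 2 matched several genes and 12 matched none. This gave 19988 genes. At most 0.0089% of a library's counts had no gene. Estimated counts were summed per gene, rounded, kept by filterByExpr at min.count 5 and min.total.count 15, scaled by TMM and fitted in edgeR 4.0.16 (R 4.3.3) with a mean for each of the 4 groups (8 residual degrees of freedom, no covariate). Totals of 19214839 to 27688255 counts set the precision, and counting intervals and floors (3 counts over a group) cover counting error only. Calls needed p under 0.01 and a Benjamini-Hochberg adjusted p under 0.1. The genes and the 34 lists were chosen with earlier results of these data known, so list counts are read against the share of all genes called.

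Named genes were the KIN-16 receptors, genes central to the study, *chil* and *pals* genes of the ORR list, up to 10 genes with the lowest and 10 with the highest response differences (at least 1 CPM, standard error under 2, groups not overlapping), repeated with an oocyte and yolk covariate, up to 4 called genes per list by adjusted p, up to 10 with kept responses, up to 8 reversed and 8 gained, and ORR genes not called. Genes named after their values were seen are said to be so.

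Alternatives were DESeq2 1.42.0, limma 3.58.1 on log2 CPM (pseudocount 0.5) and on log2 TPM computed from counts and effective lengths (pseudocount 1), no filter on low counts, RLE size factors, a minimum mean of 1 CPM, a minimum change of 1 on the log2 scale, a limit of 0.05 on the adjusted p, all 18 libraries of the extract experiment, the replicate letter as a block, the oocyte and yolk mean as a covariate, leaving out untreated N2 replicates B and C, and leaving out each library. A correction for transcript length (spline with 5 degrees of freedom per library), alone and with B and C left out, was chosen after seeing the data. The scripts were tested on simulated counts with known changes.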

Additional observations from a re-analysis of the deposited data

Results flagged for a closer look

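Each result here is a difference of the extract response between *old-1(ok1273)* and N2, tested by the difference itself over 3 libraries a group. The response was lower in *old-1(ok1273)* at 1854 genes and higher at 2110. Over all genes tested these are 11.4% and 13%, and 4.49% and 3.95% held in the 3 further fits. By list, it was lower for 42 of 50 ORR genes, 16 of 24 *chil* genes, 18 of 34 *pals* genes, 4 of 8 KIN-16 genes and 10 of 12 other genes of the intracellular pathogen response, of which 41, 16, 16, 3 and 8 held in the 3 further fits. It was lower for 3 of 6 furrow collagens, 2 of 6 osmotic stress genes and 4 of 11 neuronal genes, of which 2, 0 and 1 held. It was lower for 51 of 77 ribosomal protein genes and 42 of 67 histone genes, of which 2 and 10 held. It was higher for 10 of 19 oocyte and yolk genes, 6 of 8 germline genes, 5 of 10 body wall muscle genes and 3 of 6 pharyngeal genes, of which 1, 3, 1 and 0 held. Without untreated N2 replicates B and C, the median difference went from 1.82 to 0.47 for oocyte and yolk genes and from 0.74 to 0.47 for germline genes. It went from -0.29 to -0.35 for ribosomal protein, -1.02 to -0.93 for histone, 0.32 to 0.22 for body wall muscle and 0.20 to 0.27 for pharyngeal genes. With the length correction, 10 ribosomal protein and 22 histone genes were lower. Higher were 8 oocyte and yolk, 5 germline, 1 body wall muscle and 0 pharyngeal genes. The part of the yolk level and of the length trend in these lists was not tested. With the oocyte and yolk covariate, 60 ribosomal protein genes and 23 histone genes were lower.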

How the results depend on the processing

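The response differed at 3964 genes, and at 1511 with a minimum change of 1 on the log2 scale and 2534 with the length correction and untreated N2 replicates B and C left out. The N2 response (4749 genes) came to 2123 with the fold change minimum, 2453 with both changes, 2157 with the oocyte and yolk covariate and 2297 without B and C. The *old-1(ok1273)* response (3378) came to 348 with the fold change minimum and 2056 with the length correction. The comparison of extract-treated groups (2307) came to 446 with the fold change minimum, 4191 with both changes, 4043 with the covariate and 4146 without B and C. Genes that lost their response (1043) came to 1576 with 18 libraries in the fit, 317 with both changes, 544 and 538 with limma on log2 CPM and on log2 TPM, 292 with the covariate and 332 without B and C.

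Leaving out each library in turn gave 2912 (without *old-1(ok1273)* extract replicate C) to 6478 (without N2 replicate A) genes for the response difference, 3157 (without N2 replicate C) to 6956 (without N2 replicate A) for the N2 response, 2617 (without *old-1(ok1273)* replicate B) to 4533 (without N2 replicate A) for the *old-1(ok1273)* response, 1502 (without N2 extract replicate A) to 3947 (without N2 replicate A) between the extract-treated groups, 527 (without N2 replicate C) to 2249 (without N2 replicate A) for lost responses and 37 to 42 for ORR genes called lower. The cause of these changes was not tested.

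Of the calls in the response difference, 53.2% were higher, against 66.6% with limma on log2 TPM (2187 higher, 1097 lower, median of all genes 0.08 against -0.02). No other scaling moved that share by as much, but lower calls became the larger set with limma on log2 CPM (1612 higher, 1993 lower), with the length correction (1609 and 1656) and without N2 extract replicate C (1694 and 1804). The sign turned for *math-33* (-0.027 with both changes), *msp-3* (-0.45 with the covariate), *msp-38* (-0.53 with the covariate, -0.12 without B and C) and *myo-2* (-0.064 with the length correction, -0.092 with both changes). Of the 175 named genes called, 121 were called in the same direction with both changes, 136 with the covariate, 150 without B and C, 153 with the length correction, 168 with limma on log2 CPM and 175 with DESeq2. Of 18 same-letter pairs of libraries, 3 correlated above 0.1 in their deviations from the group means (-0.187 to 0.308). This check cannot show whether a replicate letter marks a shared culture or batch. With the replicate block, the response differed at 3598 genes (1786 higher, 1812 lower), and 39 ORR genes were lower. Genes with a group of 3 counts or fewer are given by their counts, since a fitted ratio of responses there rests on few reads.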
